A study of Mus musculus with 53 samples.

Results

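Macrophage and complement genes were followed across mouse T-cell lymphomas as a measure of macrophages within the tumours. The members were C1qa, C1qb, C1qc, Csf1r, Itgam, Cd68, Lyz2, Adgre1, Mrc1 and Cd14. They were chosen by name, and all of their probe sets in the gene table of the array were taken. This gave 10 genes of 12393 named on the array, with 14 probe sets of 22690. C1qb and Csf1r had 3 probe sets each and the other members 1 each. Where a gene had several, the probe set of highest mean stood for it. The others are given beside it for some comparisons, and their agreement is not implied where they are not given.

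C1q is the recognition protein that starts the classical complement pathway, and each C1q molecule is built from chains of all 3 C1q genes. Unlike most complement proteins, which the liver makes, C1q is made largely by macrophages, which clear dying cells in the thymus and in tumours. Csf1r is the receptor whose signal keeps macrophages alive, and Cd68, Lyz2, Adgre1, Mrc1, Cd14 and Itgam encode lysosomal and surface proteins of these cells. Normal and malignant T cells make little of them, whereas Itgam and Lyz2 are also strong in neutrophils and Cd14 in monocytes.

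RNA of 53 tumours from 15 lymphoma-prone backgrounds had been measured, each on 1 array. The Cdkn2a knockout mice carried retroviral insertional mutagenesis and gave 9 tumours, whose titles name oncogenes such as myc, ras, myb and pim1. TLX1 transgenic mice gave 6, and 6 came from mice that were TLX1 transgenic and RUNX heterozygous (crossed tumours below), which carry a TLX1 negative status label. ThPOK, Tal1-LMO2, Nup98HoxD13, olig1-LMO1 (olig2 in the titles), LMO1 and beta-catenin transgenic mice, Ikaros Plastic mice and p53 knockout mice gave 3 each. Tal1 and Pokemon transgenic mice, E2A knockout mice and rag E2A knockout mice gave 2 each. The rag E2A knockout tumours are titled E2A_III and E2A_IV, which continues the numbering of the E2A knockout titles. All groups share the strain label C57BL/6, the cell label T-cell lymphoblasts and no treatment. Ages, the promoters that drive the transgenes and the organ of the tumours are not given in the labels, and normal thymus was not analysed here. Nothing says that the tumours of a background came from separate animals. The p-values of differences set each difference against the spread within backgrounds, pooled over all of them, and that spread could be technical. For groups of 2 tumours the standard error thus rests largely on the other groups. Levels below are log2 of the intensity, differences are log2 differences, and "rose" or "fell" means an adjusted p under 0.05.

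The arrays were not alike in every group. They were clustered on bacterial control probe sets, which carry no mouse gene, and the clustering was cut at 4 sets. That number was a setting and not a finding. The largest set held 38 arrays, and another held 8 (all 6 of TLX1 and p53 knockout replicates 1 and 2). All 6 crossed arrays made up another set, and Tal1 with LMO2 replicate 2 stood by itself. The beta-actin probe sets of both transcript ends had a log2 ratio (3' over 5') of 0.31 ± 0.31 (SD, n = 41) in the 13 other backgrounds, 0.77 ± 0.11 (n = 6) in the crossed group and 1.39 ± 0.62 (n = 6) in the TLX1 group, and an 18S control probe set read 8.84, 12.71 and 9.15 in these groups. Among T-cell genes, Cd3e, Zap70 and Thy1 were above the array median on all 53 arrays, whereas Cd5 was above it on 36.

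Sequence upstream of 3 members that moved together is shown, since the factor PU.1 is a well known activator of macrophage genes and its core motif can be looked for. RefSeq promoter entries of build GRCm38.p6 were matched for 6 of the 10 members. The 250 bases before the start of C1qb (chr4:136886201-136886450, minus strand), C1qc (chr4:136892915-136893164, minus strand) and Cd68 (chr11:69666171-69666420, minus strand) read 5′ to 3′ as below, with capitals at GAGGAA or its reverse complement TTCCTC:
C1qb: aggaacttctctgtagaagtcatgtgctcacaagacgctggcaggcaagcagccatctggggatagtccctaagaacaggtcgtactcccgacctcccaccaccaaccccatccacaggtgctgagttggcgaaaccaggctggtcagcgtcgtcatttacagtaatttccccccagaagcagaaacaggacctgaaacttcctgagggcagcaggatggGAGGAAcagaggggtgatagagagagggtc
C1qc: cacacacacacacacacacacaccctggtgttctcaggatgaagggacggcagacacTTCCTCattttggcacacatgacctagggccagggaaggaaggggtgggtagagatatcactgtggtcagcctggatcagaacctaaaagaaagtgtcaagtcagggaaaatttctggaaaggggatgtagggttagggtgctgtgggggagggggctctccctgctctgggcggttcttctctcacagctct
Cd68: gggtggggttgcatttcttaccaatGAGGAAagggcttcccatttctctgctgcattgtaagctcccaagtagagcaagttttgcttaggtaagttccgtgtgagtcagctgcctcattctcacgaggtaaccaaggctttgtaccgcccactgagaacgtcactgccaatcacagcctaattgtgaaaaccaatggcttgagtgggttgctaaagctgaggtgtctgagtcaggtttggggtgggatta
C1qb held 1 match, 30 to 25 bases before the start on the plus sense of the gene, C1qc 1 match (193 to 188 bases before the start, on the opposite strand) and Cd68 1 match (225 to 220 bases before the start). Mrc1 held 3 matches, Itgam 2 and Lyz2 0. The motif was in 23.25% of 32851 RefSeq promoter windows of this length. Cd68 also held 2 matches to the AP-1 motif TGANTCA, which reads the same in its reverse complement and was in 6.749% of windows. Such matches are letters in these windows and not measured sites.

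The 3 C1q genes were lowest in E2A knockout and Tal1 with LMO2 tumours, intermediate in Rag with E2A knockout tumours, and highest in ThPOK and Ikaros plastic tumours. In these bulk samples, fewer macrophages and less of this RNA per macrophage cannot be told apart. Over 13 backgrounds, TLX1 and crossed tumours left out, the backgrounds differed for all 10 members in limma's F-test. That share says nothing particular about these genes, since 79.9% of all probe sets passed it. The differences between backgrounds held 86.9% of the variance of C1qc and 47.1% of that of Cd14 over those 41 arrays.

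**Figure D1:**
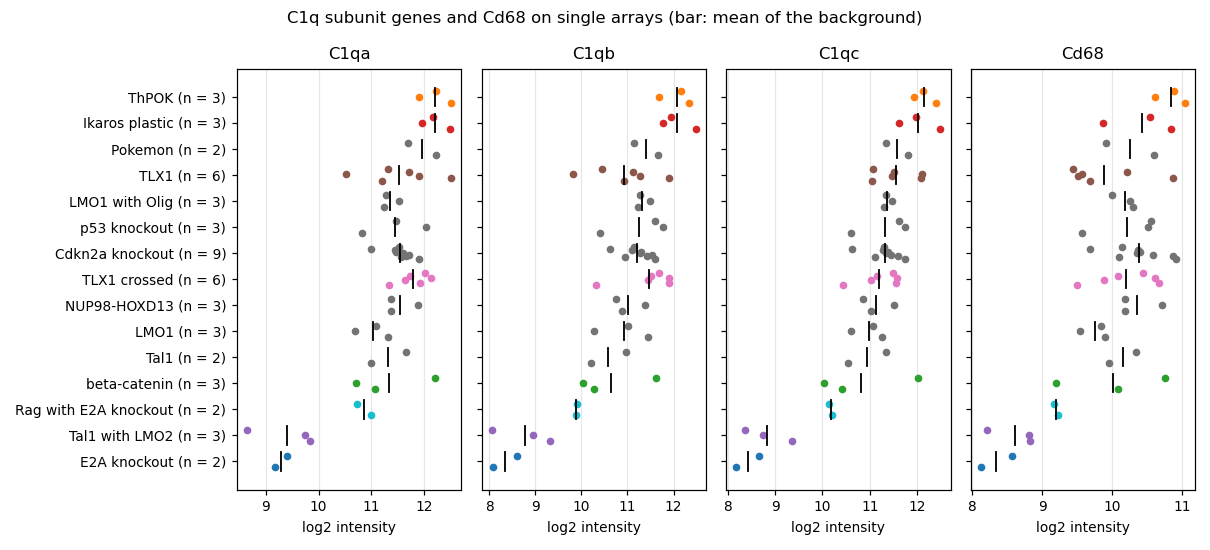
Log2 intensity (x axis) of C1qa, C1qb, C1qc and Cd68 on each of 53 arrays, by background (y axis); points are arrays and bars the mean of a background. The E2A knockout and Tal1 with LMO2 arrays lie below every other array for all 4 genes, for C1qa at 8.65 to 9.84 against 10.53 to 12.52.

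In E2A knockout tumours, which lack a transcription factor of early lymphocytes, 8 of the 10 members fell against the mean of the other 12 backgrounds. Of all probe sets 1.5% were called in this comparison and 0.614% were lower. C1qc read 8.18 and 8.67 on the 2 arrays, a difference of -2.63 ± 0.32 (SE), or 6.17-fold lower (limma adjusted p = 3.07e-06). C1qb read 8.08 and 8.60 (-2.59 ± 0.37, 6.01-fold lower), and its other probe sets differed by -1.76 and -1.80, all called. C1qa read 9.17 and 9.40 (-2.06 ± 0.31, 4.18-fold lower). The 2 arrays lay below all arrays of the 12 backgrounds except those of Tal1 with LMO2 tumours for each of these genes.

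The lysosomal and surface genes followed with smaller differences. Cd68, a lysosomal membrane protein of phagocytes, read 8.13 and 8.57 (-1.68 ± 0.31), and Lyz2, the lysozyme of macrophages and granulocytes, read 9.69 and 10.90 (-1.83 ± 0.33). The lower Lyz2 value was the lowest of the 53 arrays. Mrc1, the mannose receptor of tissue macrophages, differed by -1.26 ± 0.33 and Adgre1, which encodes F4/80, by -0.99 ± 0.26. Csf1r differed by -0.77 ± 0.21 by the probe set used, and by -0.28 and -0.26 by its others, which did not pass (adjusted p = 0.588 and 0.337). Itgam, an integrin chain, differed by -0.54 ± 0.53 and Cd14, a co-receptor for bacterial lipopolysaccharide, by -0.37 ± 0.24, and neither passed.

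With 2 tumours the calls depended on each. Without E2A knockout replicate 1, C1qc was the member still called, and C1qa (-1.95) and C1qb (-2.33) had an adjusted p of 0.0602. Without replicate 2, the calls of Csf1r, Adgre1 and Mrc1 were lost. Csf1r was called in 46 of the 53 fits that left out 1 array. Its call was also lost without some single arrays of other backgrounds (limma adjusted p = 0.0501 to 0.0514). Quantile normalization left 5 members called.

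Tal1 with LMO2 tumours, from mice with a transgene for a leukaemia transcription factor and one for its partner, had 7 members lower against the mean of the other 12 backgrounds, where 4.02% of all probe sets were called and 2.36% were lower. C1qc read 9.35, 8.75 and 8.36 (-2.20 ± 0.27, 4.59-fold lower; limma adjusted p = 1.56e-06), C1qb 9.31, 8.95 and 8.06 (-2.12 ± 0.31) and C1qa 9.84, 9.74 and 8.65 (-1.93 ± 0.26). Replicate 3 was the lowest of the tumours for each of the 3 genes. Cd68 (-1.40 ± 0.26), Mrc1 (-1.33 ± 0.27), Adgre1 (-1.14 ± 0.22) and Csf1r (-0.84 ± 0.17) fell as well, with -0.46 (not called) and -0.37 (called) by the other Csf1r probe sets. Lyz2 differed by -0.83 ± 0.27 (adjusted p = 0.0696), and Cd14 (-0.44) and Itgam (-0.58) did not pass. Leaving out single arrays gave 6 to 8 called members, the fewest without replicate 2, where Mrc1 had an adjusted p of 0.0503. Replicate 2, which stood alone on the bacterial controls, lay between the other replicates for C1qa, C1qb and C1qc, and 7 members were called with the 3 arrays that stand apart left out.

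Tumours with the Tal1 transgene alone did not share these values. C1qc read 10.54 and 11.35 in the 2 Tal1 tumours, C1qa 11.0002 and 11.65 and Cd68 9.96 and 10.35, all above the Tal1 with LMO2 range. Against the other 12 backgrounds 0 of the 10 members were called in Tal1 tumours in limma, and 0 at an unadjusted p under 0.05, where 4.79% of probe sets were called. The direct comparison was added after these values were seen. In it C1qa (-1.92 ± 0.39, adjusted p = 0.013) and C1qc (-2.12 ± 0.40, adjusted p = 0.00848) were lower in Tal1 with LMO2 than in Tal1 tumours, with 0.292% of probe sets called and 0.265% lower. C1qb differed by -1.81 by the probe set used (adjusted p = 0.0856) and by -2.001 and -1.99 by its others, which passed. Neither C1qa nor C1qc stayed called without Tal1 replicate 2 or without Tal1 with LMO2 replicate 3. The beta-actin log2 ratio was 1.08 and 0.57 on the 2 Tal1 arrays, against 0.27 to 0.40 on the Tal1 with LMO2 arrays. The part of RNA quality in these differences was not tested.

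Rag with E2A knockout tumours lay between these and the rest. C1qb read 9.88 and 9.90, above the 9.31 that was the highest value of the E2A knockout and Tal1 with LMO2 tumours, and C1qc read 10.21 and 10.14. Both genes stood below nearly all of the remaining 46 arrays: 1 of those lay under the higher of the pair for each gene. C1qa stood out less, at 10.72 to 10.99, with 4 of the 46 arrays under its higher value. In fits that left out 1 array, it differed from the other 12 backgrounds by -0.50 to -0.23 and was never called. Against the other 12 backgrounds, where 2.86% of probe sets were called and 1.94% were lower, Csf1r was the member called (-0.81 ± 0.21; limma adjusted p = 0.0257), a call lost without either tumour. Its other probe sets differed by -0.52 (not called) and -0.53 (called). Mrc1 differed by -1.04 (adjusted p = 0.0711), C1qb by -0.91, Lyz2 by -0.83 and Cd68 by -0.76. The comparison with E2A knockout tumours, also added after seeing the data, gave differences of 1.75 ± 0.44 for C1qc, 1.57 ± 0.42 for C1qa and 1.55 ± 0.51 for C1qb, and 0 members passed in limma (adjusted p = 0.289 for C1qc, with 0.00442% of probe sets called). At an unadjusted p under 0.05 there were 4 members. Csf1r read 10.46 and 10.31 against 10.53 and 10.32 in E2A knockout tumours, with the groups overlapping. Of the other macrophage genes 3 of 38 fell against the 12 backgrounds, Mpeg1 (-1.12) and Axl (-1.03) most, and of the other complement genes 2 of 18, Serping1 (-1.68) and Cfp (-1.49), where 2.11% of all genes fell.

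**Figure D2:**
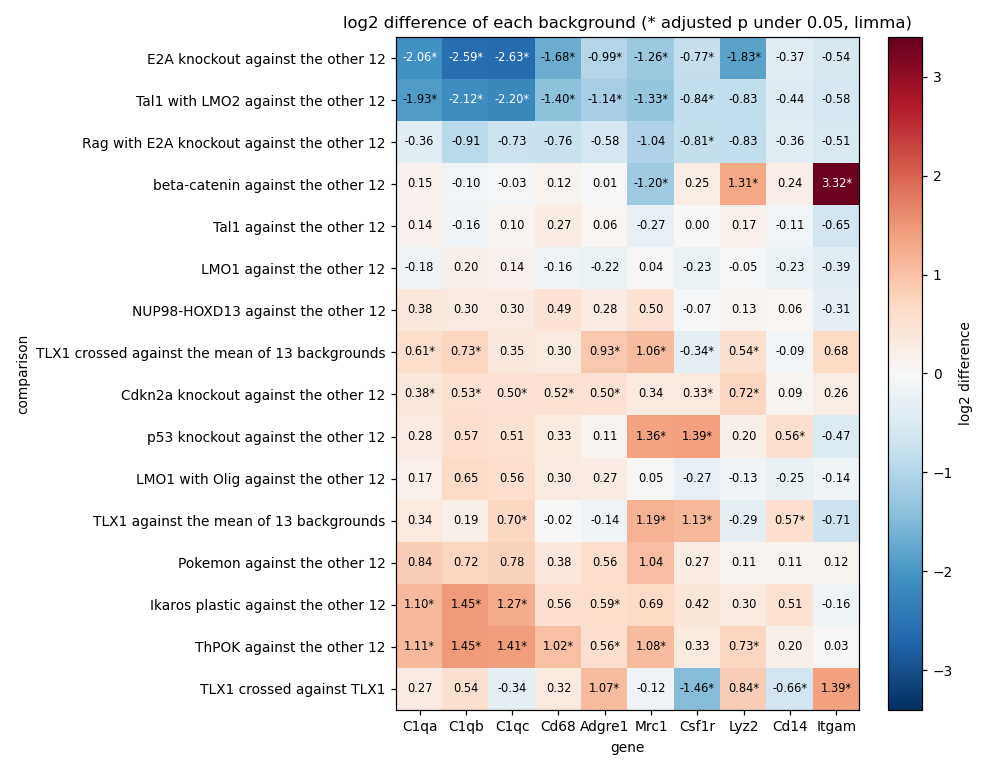
Log2 differences (colour and printed value) of the 10 members (x axis) in 16 comparisons (y axis), from limma; an asterisk marks an adjusted p under 0.05. The 2 comparisons at the top, E2A knockout and Tal1 with LMO2, hold 8 and 7 members called lower, and Itgam in beta-catenin tumours (3.32) is the largest positive difference shown.

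Other genes of these lists were lower in the same tumours. Of 38 other macrophage genes measured, 8 fell and 0 rose in E2A knockout tumours (median -0.64, against -0.01 over all genes, of which 0.694% fell), and 16 fell and 0 rose in Tal1 with LMO2 tumours (median -0.66, against -0.03 and 2.65%). In E2A knockout tumours they included Apoe, a lipid carrier of macrophages (-2.02), Lgmn, a lysosomal protease (-1.67), and Mpeg1, which encodes perforin-2 (-1.63). In Tal1 with LMO2 tumours the largest were Mpeg1 (-1.66), Pltp (-1.56) and the lysosomal protease gene Ctss (-1.55). Of 18 other complement genes 2 fell in E2A knockout tumours, Serping1, the inhibitor of C1 (-2.27), and Cfp, properdin (-1.37). Serping1 (-2.32) and Cfp (-1.14) also fell in Tal1 with LMO2 tumours, with C1s1, a protease of the C1 complex (-0.77). The macrophage growth factor and chemokine genes Csf1, Il34, Csf2, Ccl2 and Cx3cl1 were called in neither of these backgrounds in limma (0 of 5, and 0 at an unadjusted p under 0.05).

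Stromal and endothelial genes moved with them in part. Of 10 stromal and endothelial genes 3 fell in E2A knockout tumours, Col3a1 (-2.81), Dcn (-2.40) and Sparc (-2.26), and 4 fell in Tal1 with LMO2 tumours, among them the same 3 genes (-2.95, -2.35 and -2.24). The summed intensity of the 10 genes was 4378 to 5982 in E2A knockout, 4564 to 7978 in Rag with E2A knockout and 3046 to 3981 in Tal1 with LMO2 tumours, and reached 63762 over the 41 arrays of 13 backgrounds. Granulocyte genes summed to 6438 to 6542 in E2A knockout and 5788 to 5914 in Tal1 with LMO2 tumours, against 4901 to 16310 over the 41 arrays. Dendritic genes summed to 3086 to 3214 and 2733 to 5273 (2298 to 5273 over the 41), and B-cell genes to 2246 to 2265 and 2142 to 2609 (1942 to 6750). T-cell genes were not called in E2A knockout or Tal1 with LMO2 tumours in limma (0 of 9, and 0 at an unadjusted p under 0.05; medians 0.39 and 0.28). The beta-actin log2 ratio ranged from 0.27 to 0.56 on the 5 arrays of E2A knockout and Tal1 with LMO2 tumours, against 0.04 to 1.53 over the 41 arrays. The part of the stromal genes' cells in the members' values was not tested.

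ThPOK transgenic tumours, which express a transcription factor of helper T cells, had 7 members higher against the other 12 backgrounds, where 26.8% of all probe sets were called and 18.5% were higher. C1qb read 12.34, 11.69 and 12.17 (1.45 ± 0.31, 2.73-fold; limma adjusted p = 0.000493), C1qc 12.39, 11.94 and 12.13 (1.41 ± 0.27) and C1qa 12.51, 11.91 and 12.23 (1.11 ± 0.26). Cd68, at 11.04, 10.61 and 10.88, had its highest background mean here (1.02 ± 0.26). Mrc1 rose by 1.08 ± 0.27. Lyz2 (0.73, adjusted p = 0.0411) and Adgre1 (0.56, adjusted p = 0.0477) passed narrowly. Each lost its call without any 1 of the 3 ThPOK tumours, and Adgre1 in 31 of the 53 fits that left out 1 array. Csf1r differed by 0.33 (not called), and by 0.46 and 0.64 by its other probe sets, which passed. Of the 38 other macrophage genes 17 rose and 0 fell (median 0.49, against 0.09 over all genes, of which 19.9% rose), led by Cd5l (1.53), the iron exporter gene Slc40a1 (1.496) and Fcgr3 (1.24). Of 18 other complement genes 8 rose, among them Serping1 (1.22), Cd93 (0.96) and Cfp (0.72). Of 10 stromal genes 2 rose, Col3a1 (1.27) and Sparc (1.07), with a summed intensity of 11214 to 18278, and of 13 granulocyte genes 3 rose, Lcn2 (1.32) and Csf3r (0.70) most, both near the share over all genes. Their part in the members' values was not tested.

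Ikaros plastic tumours had 4 members higher, where 28.6% of all probe sets were called and 19.5% were higher. C1qb read 12.48, 11.77 and 11.95 (1.45 ± 0.31; limma adjusted p = 0.00048), C1qc 12.49, 11.62 and 11.97 (1.27 ± 0.27) and C1qa 12.49, 11.96 and 12.17 (1.10 ± 0.26). All 6 Ikaros plastic and ThPOK tumours had at least 11.69 for C1qb, and 1 of the other 35 arrays of the 13 backgrounds reached that level. For C1qa and C1qc, 3 and 4 of those 35 arrays lay above the lowest of the 6 tumours (11.91 and 11.62). TLX1 and crossed tumours reached 11.90 and 11.91 for C1qb. The fourth gene, Adgre1 (0.59 ± 0.22, adjusted p = 0.0364), lost its call without replicate 1 or replicate 2. Lyz2, at 12.33, 12.41 and 12.05, differed by 0.30 and did not pass. Cd68 (0.56), Mrc1 (0.69), Cd14 (0.51) and Csf1r (0.42) had adjusted p from 0.0507 to 0.0941, and 7 members were called with the 3 arrays that stand apart left out. Of the 38 other macrophage genes 16 rose and 0 fell (median 0.53, against 0.06 over all genes, of which 20.7% rose), led by Gas6 (1.33), Apoe (1.10) and Fcer1g (1.08). Stromal genes were high as well, with 4 of 10 risen, Pdgfrb (2.28), Dcn (1.53) and Vwf (1.29) most, and a summed intensity of 13629 to 22992, and their part in the members' values was not tested.

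In beta-catenin transgenic tumours the integrin gene Itgam stood apart from the other members. It read 9.63, 12.04 and 11.35 on the 3 arrays, against a median of 7.60 over all 53. The difference from the other 12 backgrounds was 3.32 ± 0.44 (limma adjusted p = 1.13e-07), in a comparison where 36.7% of all probe sets were called, 26.9% higher and 9.78% lower. It was 4.01 without replicate 1 and 2.81 without replicate 2, and was called in all 53 fits that left out 1 array. No fold is given, since Itgam was below the array median on most other arrays and whether it was above background there was not analysed here. Lyz2, at 13.18, 12.66 and 13.74, had its highest background mean here (1.31 ± 0.27, 2.47-fold). Mrc1, at 8.11, 8.35 and 8.86, was lower (-1.20 ± 0.27, 2.29-fold lower). C1qa (0.15), C1qb (-0.10), C1qc (-0.03), Cd68 (0.12) and Adgre1 (0.01) were not called, but their 3 values were far apart: C1qc read 10.41, 10.03 and 12.02. Replicate 2, the highest for Itgam, was the lowest of the 3 for C1qa, C1qb, C1qc, Cd68 and Lyz2.

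Among other cell markers in the beta-catenin tumours, most B-cell genes rose: 6 of 7, led by Ms4a1 (1.53) and Cd79a (1.23), where 27.4% of all genes rose. Of 13 granulocyte genes 4 rose, Lcn2 (1.22), Mmp9 (0.80) and Csf3r (0.67) most, with summed intensities of 10022, 16310 and 11662 in replicates 1 to 3. Over the other arrays outside the crossed group this sum reached 20900, on a TLX1 array whose Itgam level was 7.19. Of 18 other complement genes 6 rose, led by Cfb, complement factor B (1.65), and C5ar1, the C5a receptor (0.73). The granulocyte and complement counts lie near the share over all genes. The part of these cell types in the Itgam values was not tested.

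High Itgam also occurred on single arrays of other backgrounds. Replicate 2 of the Cdkn2a knockout tumours, titled for ras, read 11.36 against 7.21 to 8.42 in the other 8, while its C1qa (11.58), Cd68 (10.09) and Lyz2 (12.75) lay inside their range, and its granulocyte genes summed to 7864. Crossed replicate 1 read 10.38 against 8.07 to 8.55 in the other 5. Itgam was above the array median on 5 of 53 arrays: the 3 beta-catenin arrays and these 2. On the remaining arrays the probe set was in the lower part of the range, from 7.09 to 8.71.

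**Figure D3:**
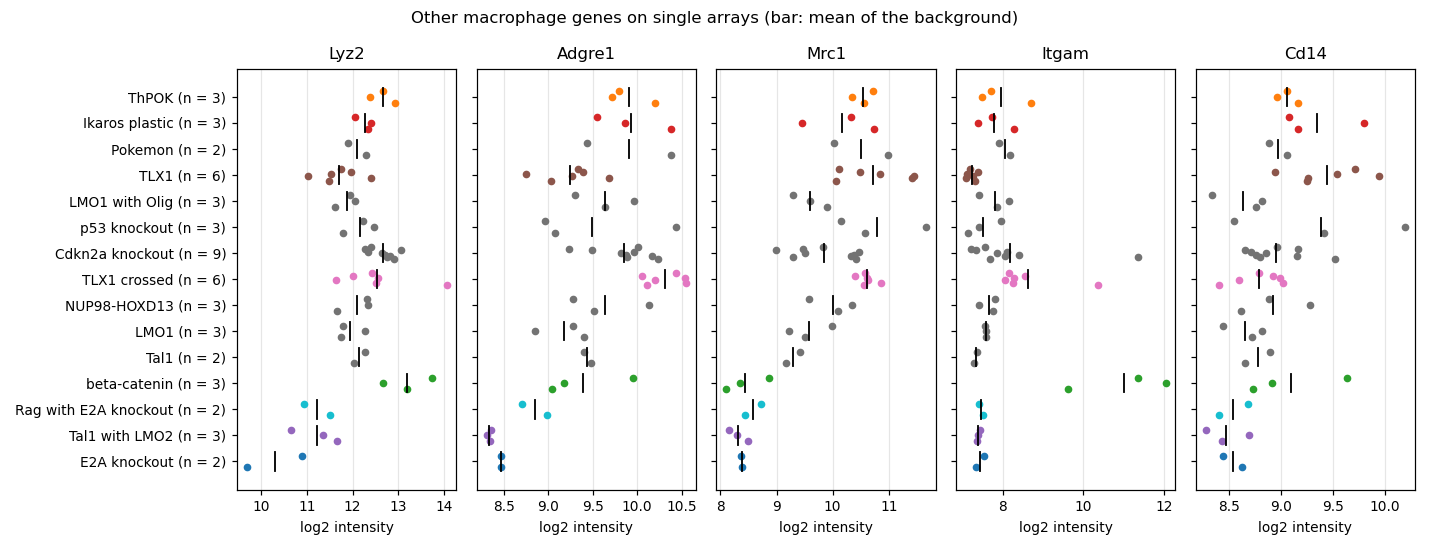
Log2 intensity (x axis) of Lyz2, Adgre1, Mrc1, Itgam and Cd14 on each of 53 arrays, by background (y axis); points are arrays and bars the mean of a background. Itgam is high on the 3 beta-catenin arrays (9.63 to 12.04), on 1 Cdkn2a knockout array (11.36) and on 1 crossed array (10.38), and Lyz2 reaches 14.05 on that crossed array.

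In the 9 Cdkn2a knockout tumours 7 members were higher against the other 12 backgrounds, by 0.33 to 0.72, where 47.6% of all probe sets were called and 32.4% were higher. Lyz2 had a lowest value of 12.28, a median of 12.72 and a highest of 13.05 (0.72 ± 0.17; limma adjusted p = 0.000563). Cd68 (0.52), C1qb (0.53), C1qc (0.50), Adgre1 (0.50), C1qa (0.38) and Csf1r (0.33) were the others. With each array centred on its median 2 members remained called, and C1qa lost its call in 32 of 53 fits that left out 1 array. Of the 38 other macrophage genes 11 rose and 1 fell, and of all genes 33.3% rose and 15.3% fell. Of 9 T-cell genes 3 fell (median -0.44).

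In p53 knockout tumours Mrc1 was high, and so was Csf1r by the probe set used. Csf1r read 12.36, 13.21 and 11.68 (1.39 ± 0.17; limma adjusted p = 2.21e-08), Mrc1 10.58, 11.66 and 10.16 (1.36 ± 0.27) and Cd14 9.41, 10.19 and 8.55 (0.56 ± 0.20), in a comparison with 48.7% of all probe sets called and 24.2% higher. Replicates 1 and 2, which share the array set of the TLX1 tumours, gave the 2 highest values of each. Replicate 3, which lies in the largest array set, had a Csf1r level that 3 of the 38 arrays of the other backgrounds exceeded, and a Mrc1 level that 11 exceeded. The other Csf1r probe sets set p53 knockout tumours less apart. By one their mean was the highest, but narrowly, at 11.42 against 11.36 in Ikaros plastic tumours. By the other their mean ranked 7 among the 15 backgrounds, at 9.86 against 10.52 in ThPOK tumours. Cd14 lost its call without replicate 1 (0.54, limma adjusted p = 0.0697) and without replicate 2 (0.15, adjusted p = 0.635). With the 3 arrays that stand apart left out, replicate 3 is the only p53 knockout tumour and is assumed to vary like the other groups. It differed by 0.65 ± 0.24 for Csf1r (adjusted p = 0.0756), 0.72 ± 0.44 for Mrc1 (adjusted p = 0.329) and -0.27 for Cd14, and 0 members were called in limma (1 at an unadjusted p under 0.05). Other cell markers moved with these values: 8 of 10 stromal genes rose, led by Sparc (1.97) and the endothelial cadherin gene Cdh5 (1.74), and 6 of 9 T-cell genes fell, led by Cd28 (-1.74) and Cd3g (-1.70). The p53 knockout arrays were far apart in both. Their summed intensity of the T-cell genes ran from 7957, the lowest of the 41, to 45546. That of the stromal genes ran from 13829 to 63762, the highest of the 41. Of the 38 other macrophage genes 16 rose and 1 fell, where 26.1% and 22.5% of all genes did, with Trem2 (1.62) highest. The part of these cells in the members' values was not tested. Array set and background cannot be told apart for these 2 tumours.

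LMO1, LMO1 with Olig, NUP98-HOXD13 and Pokemon tumours had 0 of 10 members called in limma, where 22.9%, 19.5%, 4.28% and 3.89% of all probe sets were, and 0, 2, 0 and 4 members at an unadjusted p under 0.05. The median difference of the 10 members was -0.17, 0.11, 0.29 and 0.47 in these backgrounds, against -0.10, -0.13, -0.06 and -0.07 over all genes. C1qc lay between 10.61 and 11.81 on these arrays. With 2 or 3 tumours each, an uncalled member is not shown to equal the rest. Mrc1 was the nearest to a call in Pokemon tumours, at 10.99 and 10.02 (1.04 ± 0.33, adjusted p = 0.063), and passed without p53 knockout replicate 2 (1.08, adjusted p = 0.0360).

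TLX1 tumours were set against the 13 backgrounds, since the labels give each tumour a TLX1 status. Csf1r had a lowest value of 11.93, a median of 12.19 and a highest of 12.89, and differed by 1.13 ± 0.13 (limma adjusted p = 6.5e-10). Mrc1, at 10.06, 10.66 and 11.45 (1.19 ± 0.20), C1qc, at 11.04, 11.49 and 12.11 (0.70 ± 0.20), and Cd14, at 8.94, 9.39 and 9.94 (0.57 ± 0.15), were also higher, so that 4 members were called higher where 55.3% of all probe sets were called and 30.8% were higher. The 3 Csf1r probe sets did not move alike, at 1.13, 0.39 (both called) and -0.12 (not called). C1qa (0.34), C1qb (0.19), Cd68 (-0.02), Adgre1 (-0.14), Lyz2 (-0.29) and Itgam (-0.71) did not pass. With p53 knockout replicates 1 and 2, the other arrays of the same set, as the controls, 0 members were called in limma (0 at an unadjusted p under 0.05) and the direction turned for Csf1r (-0.52), Mrc1 (-0.39) and Cd14 (-0.36). Of the 38 other macrophage genes 13 rose and 2 fell against the 13 backgrounds, where 32.3% and 20.1% of all genes did. Cd163, a scavenger receptor of tissue macrophages, rose by 1.22, and 6 of 10 stromal genes rose (median 0.82).

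Crossed tumours had 5 members higher and 1 lower than the 13 backgrounds, where 66.5% of all probe sets were called, 20.7% higher and 45.8% lower. Adgre1 lay from 10.05 to 10.55 with a median of 10.32, the highest background mean, and differed by 0.93 ± 0.16 (limma adjusted p = 2.3e-06). Mrc1 (1.06 ± 0.20), C1qb (0.73 ± 0.23), C1qa (0.61 ± 0.19) and Lyz2 (0.54 ± 0.20) were the others called higher. Csf1r was lower by all 3 probe sets, at -0.34, -1.52 and -0.77, all called. The median over all probe sets was -0.16 in this comparison and 0.15 with each array centred, where 8 members were called higher and 0 lower. The Lyz2 (0.24) and Csf1r (-0.26) calls were lost without crossed replicate 1. In that fit C1qc (0.51, limma adjusted p = 0.0285) and Cd68 (0.44, adjusted p = 0.0487) were called higher. Of 10 stromal genes 7 rose (median 0.91), led by Pdgfrb (1.99), and of 9 T-cell genes 4 fell, led by Cd2 (-2.30) and Cd3d (-1.70), where 19.1% of all genes rose and 46.9% fell. Their part in the members' values was not tested.

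Crossed tumours were then set against TLX1 tumours, which differ from them by RUNX heterozygosity and by TLX1 status in the labels. Csf1r ranged from 10.41 to 11.03 in crossed and from 11.93 to 12.89 in TLX1 tumours, with no overlap, and was lower by -1.46 ± 0.16 (limma adjusted p = 2.96e-10). Its other probe sets gave -1.91 and -0.65. Adgre1 was higher by 1.07 ± 0.21, with the groups apart (10.05 to 10.55 against 8.75 to 9.69), and Itgam by 1.39 ± 0.42 (8.07 to 10.38 against 7.09 to 7.40, below the array median on all but 1 of the 12 arrays). Lyz2 (0.84 ± 0.26) was higher and Cd14 (-0.66 ± 0.19) lower. In all 3 members were higher and 2 lower, where 62.1% of all probe sets were called (20.4% higher, 41.8% lower) and the median over them was -0.15 (0.23 with arrays centred, with 6 members higher and 1 lower). Csf1r was called lower with arrays centred (-1.09) and with quantile normalization (-1.53), and Cd14 under neither (-0.28 and -0.33). C1qa (0.27), C1qb (0.54), C1qc (-0.34), Cd68 (0.32) and Mrc1 (-0.12) did not pass. Of the 38 other macrophage genes 7 rose and 11 fell, where 16.8% and 44.5% of all genes did, with Trem2, a lipid receptor of macrophages (-3.14), and the chemokine receptor gene Ccr2 (-1.85) lowest. Of the ligand genes 3 of 5 fell, Csf2 (-1.20), Csf1 (-1.09) and Il34 (-0.68), of which Csf1 and Il34 encode the ligands of Csf1r. Of 18 other complement genes 1 rose and 7 fell, led by Itgax (-2.88) and C6 (-2.73). Array set and genotype cannot be told apart here, since each group lies in a set of its own but for the p53 knockout arrays.

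**Figure D4:**
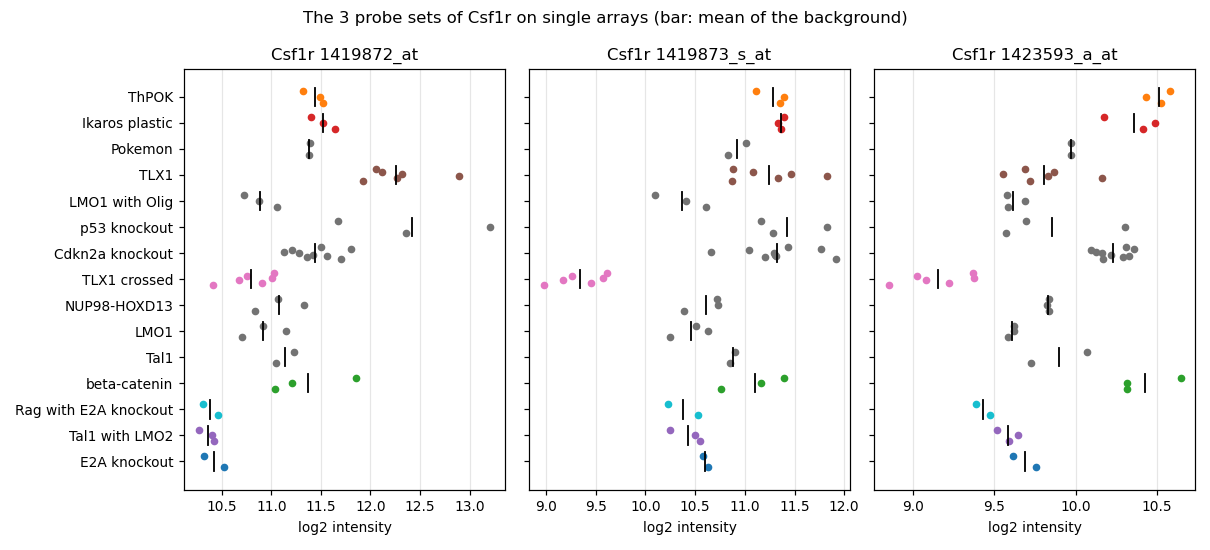
Log2 intensity (x axis) of the 3 Csf1r probe sets on each of 53 arrays, by background (y axis); points are arrays and bars the mean of a background. The left-hand probe set puts TLX1 (11.93 to 12.89) and p53 knockout tumours (11.68 to 13.21) highest, while the right-hand one puts ThPOK tumours (10.43 to 10.59) at the highest mean, and crossed tumours have the lowest mean by it and by the middle one.

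One crossed tumour carried a granulocyte signal. In replicate 1 all 13 measured granulocyte genes were above the other 5 crossed arrays, and their summed intensity was 126930 against 3722 to 6177 in the others. The antimicrobial peptide gene Camp read 14.02 there, 5.81 above the median of the other 5, and S100a8 (14.55), S100a9 (14.60), Ngp (13.92) and Mpo (13.34) read high as well. Lyz2, at 14.05, and Itgam, at 10.38, were at their highest of the crossed group on this array, whereas C1qa (11.34), C1qb (10.31), C1qc (10.43) and Cd68 (9.50) were at their lowest. Without it the difference from TLX1 tumours was 1.04 for Itgam (adjusted p = 0.0257) and 0.53 for Lyz2 (adjusted p = 0.0383), and 0.77 for C1qb (adjusted p = 0.0196).

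Within the largest array set, the C1q subunit genes rose and fell together from tumour to tumour. Over its 38 arrays r was 0.992 between C1qb and C1qc, 0.975 between C1qa and C1qc and 0.965 between C1qa and C1qb. The low tumours lie apart from the rest and can set such values, so that the relation was also taken over 32 arrays without the E2A knockout, Rag with E2A knockout and Tal1 with LMO2 tumours, a choice made after seeing the data. There Pearson's r was 0.972 for C1qb with C1qc, 0.931 for C1qa with C1qc and 0.8997 for C1qa with C1qb, and Spearman's rho was 0.957, 0.912 and 0.863 (permutation p = 1e-05 for each, the smallest that the 100000 permutations can give; adjusted 2e-05 over 10 relations). Leaving out the 2 arrays farthest from the median gave r of 0.963, 0.908 and 0.866.

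The other members followed the mean of the 3 C1q genes to different degrees over these 32 arrays. The permutations over the 32 arrays took no account of background, so their p-values treat tumours of a background as unrelated. Cd68 followed it most (r = 0.826, rho = 0.790; permutation p = 1e-05 for both, adjusted 2e-05), and r was 0.778 without the 2 farthest arrays. Adgre1 (r = 0.715, rho = 0.690; permutation p = 1e-05 for both) and Mrc1 (r = 0.709, rho = 0.688; permutation p = 2e-05 and 3e-05) came next, at r of 0.663 and 0.626 without the 2 farthest. Cd14 (r = 0.471, rho = 0.581; permutation p = 0.00642 and 0.00065) and Csf1r (r = 0.452, rho = 0.585; permutation p = 0.00921 and 0.00054) followed less, with p for r adjusted to 0.00917 and 0.0115, and with r of 0.502 and 0.431 without the 2 farthest. Lyz2 (r = 0.190, rho = 0.281; permutation p = 0.299 and 0.119) and Itgam (r = -0.134, rho = 0.194; permutation p = 0.467 and 0.286) did not pass. The Csf1r probe sets differed in this: over all 38 arrays r was 0.762 for the one used and 0.503 and 0.571 for the others. Within backgrounds, with each background's mean subtracted over 38 arrays, r was 0.886 for Cd68, 0.716 for Adgre1, 0.605 for Lyz2 and 0.585 for Mrc1 (adjusted permutation p of 0.00861 or less), and 0.324 for Csf1r, 0.377 for Cd14 and 0.099 for Itgam, which did not pass (adjusted permutation p = 0.3, 0.146 and 0.746).

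**Figure D5:**
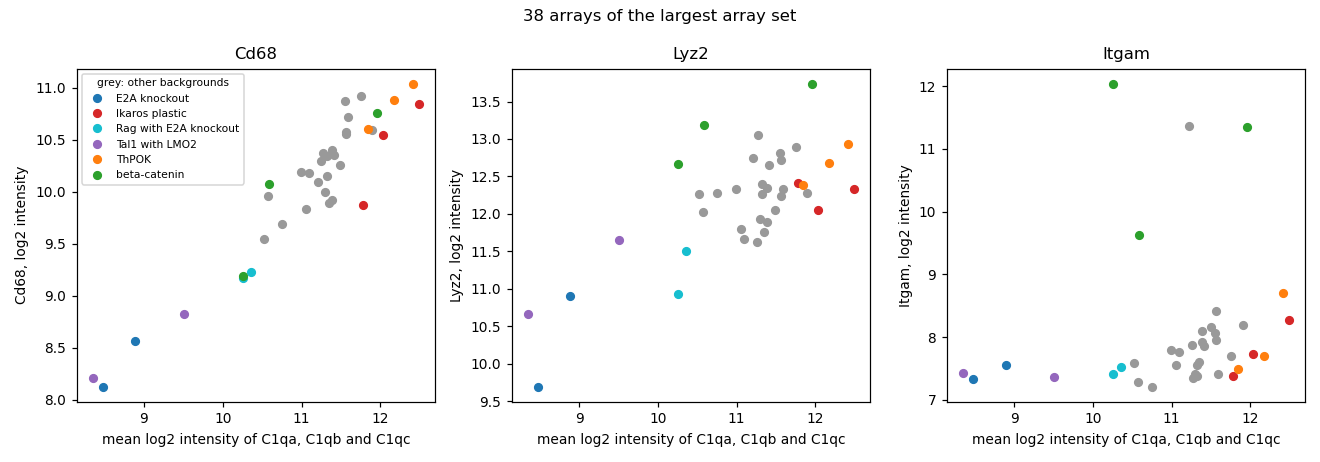
Log2 intensity of Cd68, Lyz2 and Itgam (y axes) against the mean log2 intensity of C1qa, C1qb and C1qc (x axes) on the 38 arrays of the largest array set; points are arrays, coloured for 6 backgrounds. Cd68 follows the C1q mean over its whole range, Lyz2 is high in the 3 beta-catenin tumours (12.66 to 13.74), whose C1qc levels run from 10.03 to 12.02, and the 4 high Itgam arrays have no common C1q level.

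The genes most like the C1q mean were taken from all 12393 genes by Pearson's r over the same 38 arrays, as a description. Outside the members these were Abca1, a cholesterol exporter (0.903), the collagen gene Col3a1 (0.8997), Lgmn (0.8996), Cd302 (0.895), Apoe (0.887), Mpeg1 (0.880), Bgn, a matrix proteoglycan (0.872), Serping1 (0.868), Lgals3 (0.868) and Selenop (0.867). They include 3 genes of the macrophage list, 1 of the complement list and 1 of the stromal list. All these values share the arrays and their scale, and the low tumours contribute to each.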

How the data were processed

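Per the labels' protocols, Trizol was used to take total RNA from the cells of 53 tumours, and each was labelled with biotin for 1 oligonucleotide array. The authors deposited normalized intensity values on a linear scale, from 55.1 to 25357, with array medians of 377 to 590. The normalization, which can shift whole groups, has a method not given in the sources used here.

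Here intensities were converted to log2 with no pseudocount. The precision depends on how many arrays a group has. Probe sets were named through the platform gene table (20380 with 1 symbol, 691 with several, 1606 with none). All 22626 probe sets other than 64 controls were fitted in limma 3.58.1 (R 4.3.3; lmFit, eBayes) with 15 background means over 53 arrays and no filter. All 14 member probe sets exceeded the array median on 3 arrays or more. Each of 13 backgrounds was compared with the mean of the other 12. TLX1 and crossed tumours were compared with the mean of the 13 and with each other. Two-sided p-values were adjusted by Benjamini and Hochberg's method over all probe sets, with a threshold of 0.05. Correlations were tested with 100000 permutations (NumPy 2.4.6, SciPy 1.17.1). Values were shuffled over all arrays used, and within backgrounds where the background means were subtracted. Array sets came from clustering the arrays on 27 bacterial control probe sets (average linkage), with the number of sets fixed at 4. No 2 arrays were counted as duplicates (highest correlation 0.988).

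The members, lists and motifs were chosen with earlier results of these data known. Named genes were the members, up to 3 called genes of largest difference from each list, and the 10 genes most like the C1q mean. On simulated data with 200 of 22626 probe sets changed by 1 on the log2 scale, 85% were called in the E2A knockout comparison and 98% in the Cdkn2a knockout comparison. These probe sets were drawn at random, with independent normal noise, so the rates are not those of the members. The alternatives were other scaling, a pseudocount of 50, filters, other models, left-out arrays and a replicate block.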

Additional observations from a re-analysis of the deposited data

Results flagged for a closer look

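Each of the 14 member probe sets was examined in the Cdkn2a knockout, TLX1 and crossed groups, which makes 42 tests that share arrays. By Dixon's test 4 values stood far from the rest of their group (chance gives about 1 in 20). The Itgam level of Cdkn2a knockout replicate 2 was 11.36, with the other 8 from 7.21 to 8.42. The Itgam level of crossed replicate 1 was 10.38, with the other 5 from 8.07 to 8.55, and the C1qb level of the same array was 10.31, with the others from 11.44 to 11.91. The C1qa level of Cdkn2a knockout replicate 8 was 11.0004, with the others from 11.45 to 11.91; its Cd68 (9.69), C1qb (10.62) and C1qc (10.63) levels were the lowest of that group too.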

How the results depend on the processing

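Of 67 pairs of member and comparison called in the report, 60 kept their direction and call with quantile normalization, 56 with arrays centred and 67 with trended and robust eBayes. With p53 knockout replicates 1 and 2 as the controls of TLX1 tumours, 0 members were called in place of 4, and Csf1r (-0.52), Mrc1 (-0.39) and Cd14 (-0.36) reversed. Without the 3 arrays that stand apart, Cd14 reversed in p53 knockout tumours (-0.27), of which 1 is then left. The cause was not tested. Leaving out 1 array gave 9 to 10 members in the F-test, 31 to 44 called pairs over the 13 backgrounds (40 with all arrays), 4 to 5 members in TLX1 tumours, 6 to 7 in crossed tumours, 5 to 6 in crossed against TLX1 tumours, 0 in Rag with E2A knockout against E2A knockout tumours and 0 to 3 in Tal1 with LMO2 against Tal1 tumours (2 with all arrays). A lone tumour left in a group is assumed to vary like the other groups. Fitting only the 12 crossed and TLX1 arrays gave 4 called members without a replicate block and 4 with one. Lyz2 was called in neither fit (limma adjusted p = 0.0704 with the block). Deviations of same-numbered arrays from their group means correlated from -0.17 to 0.15. These values gave no sign that the numbers pair the arrays, and the labels were not otherwise checked for it. The backgrounds of 2 or 3 tumours limit what can be called.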
